A study of Mus musculus with 6 samples.

Results

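The genes described here encode the proteins of the cytosolic ribosome. Members were taken by gene name from the deposited table: every gene named Rpl or Rps with a number, with or without the endings a, x, l, al or l1, together with Rplp0, Rplp1, Rplp2 and Rpsa. Genes named as pseudogenes with the ending -ps were left out. The rule gave 87 of 55401 genes: 43 proteins of the large (60S) subunit, 30 of the small (40S) subunit, 3 of the stalk of the large subunit, 8 paralogs (Rpl3l, Rpl7l1, Rpl10l, Rpl22l1, Rpl36al, Rpl39l, Rps27l and Rps4l) and 3 further copies (Rpl6l, Rpl32l and Rps12l1) that the annotation lists as processed pseudogenes. Fau and Rps3a1, which also encode ribosomal proteins, carry other names and are not among them.

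The cells were C2C12 myotubes, the muscle fibres in culture that form when this mouse myoblast line is kept in low serum (DMEM with 2% horse serum and antibiotics). One group received an siRNA named GL2 as control, which is directed against firefly luciferase, and the other an siRNA against SENP7, a protease that takes the small modifier SUMO off other proteins. Both received 100 pmol of siRNA for 3 days, and each group had 3 libraries of polyadenylated RNA that the submitters describe as biological replicates. The labels name 1 cell line, and what separates the replicates (culture, day or passage) is not given in the sources used here, so the p-values measure the spread between these 3 libraries.

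A ribosome joins a small subunit, which reads the mRNA, to a large subunit, which forms the peptide bonds. Its proteins are mostly needed in equal amounts, their mRNAs are among the most abundant in a growing cell, and most of these mRNAs begin with a run of pyrimidines that lets mTOR signalling control their translation as a group. A few of the proteins have paralogs used in some tissues only; in striated muscle the best known is Rpl3l, which takes the place of Rpl3 in the large subunit of mature fibres.

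Each library held 25223218 to 30865945 reads assigned to genes. Senp7, the target of the siRNA, had normalized counts of 556.4, 616.4 and 648.8 with control siRNA and of 275, 279.2 and 346.7 with its own siRNA (log2 fold change -1.02 ± 0.11 SE, adjusted p = 0.000428). All 8 myotube markers examined (Myog, Myh3, Acta1, Ckm, Des, Tnnt3, Mymk and Ttn) were read in every library, with summed normalized counts of 580800 to 624200 in control and 662400 to 734200 in SENP7 libraries. Summed markers of other cell types were 43.9 to 62.3 for leukocytes (Ptprc, Cd68, Adgre1 and Csf1r, with Adgre1 at 0 in all 6 libraries), 10.01 to 25.7 for endothelium, at most 3.21 for adipocytes and 1044 to 2525 for fibroblasts, where Dcn made up most and Tcf21 was at 0 in all 6. Control replicate 3 stood apart from the other control libraries: on the first principal component of all tested genes (64.35% of the variance) it lay at -19.13, control replicates 1 and 2 at -36.74 and -33.35, and the SENP7 libraries at 27.68, 29.01 and 32.53. In this bulk RNA, fewer cells of a type and less RNA per cell cannot be told apart.

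SENP7 siRNA was followed by a rise of Rpl3l and a fall of 4 members, Rpl22l1, Rpl13a, Rpl29 and Rpl15, among the 82 members that could be tested. Rpl3l passed the filter on low counts (at least 10 in at least 3 libraries) through the SENP7 libraries alone. It thus had to differ to be among the members tested. The 1 rise was 1.22% of the members tested, where 10.2% of all 14668 tested genes rose, and the 4 falls were 4.88%, where 10.7% of all tested genes fell (limma, Benjamini-Hochberg adjusted p below 0.05, over all tested genes). In either direction the share of all tested genes was 20.9%. The other 77 members tested did not pass. Of the 82, 78 had a log2 fold change below 0, which is 95.1% against 50.5% of all tested genes, and the median log2 fold change was -0.15 against 0.00 (-0.0025) over all genes. At an unadjusted p below 0.05 there were 13 of the 82 members. Among all tested genes that share was at least the 20.9% that passed after adjustment. Groups did not overlap for 6 members that were lower in SENP7 libraries (7.32%, where the share of all genes was 20.4%), namely Rpl22l1, Rpl13a, Rpl29, Rpl15, Rps2 and Rpl4, and for 1 that was higher, Rpl3l (where the share of all genes was 19.3%).

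**Figure D1:**
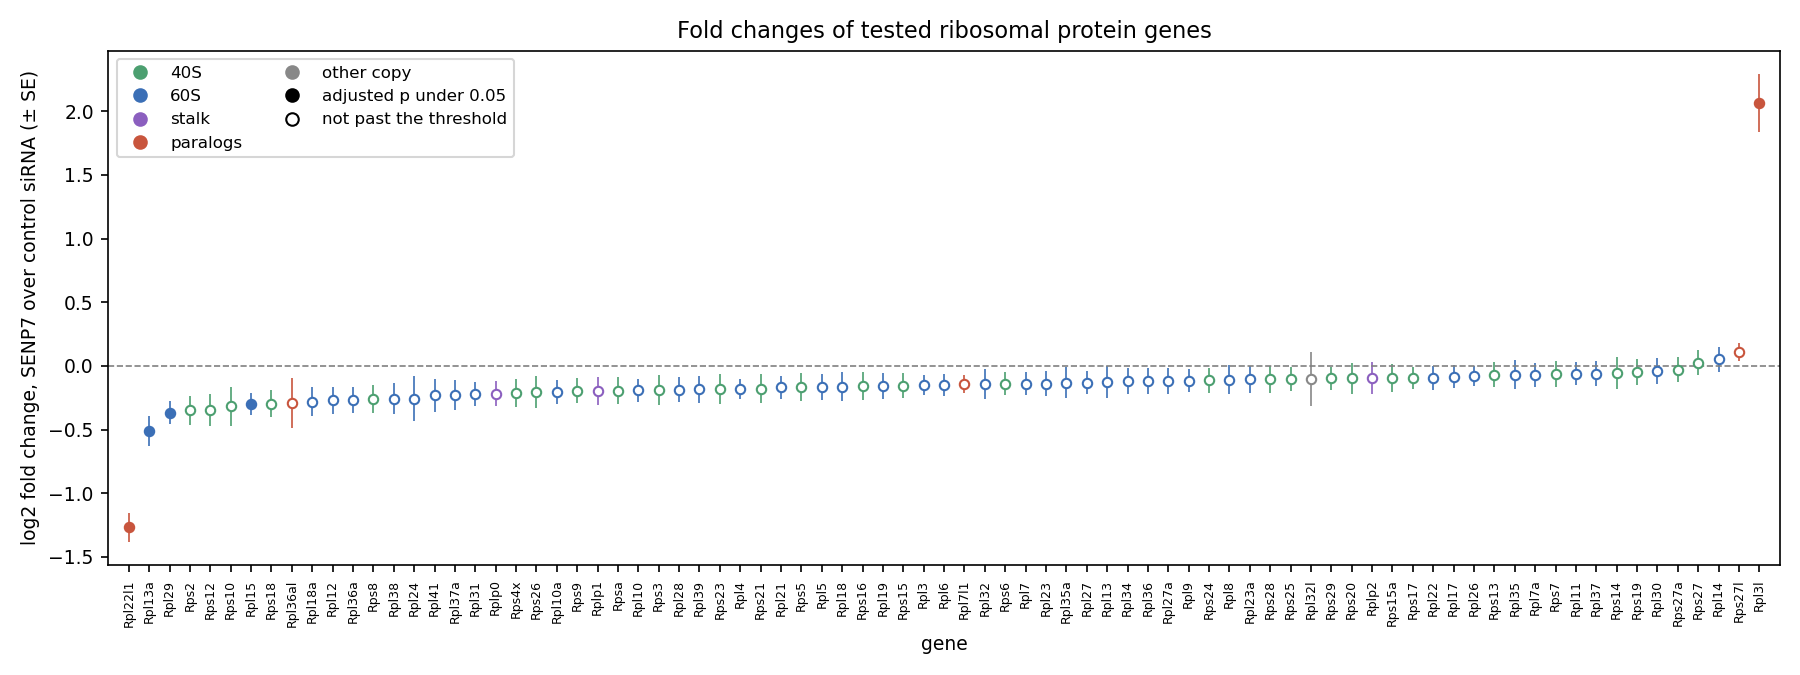
Log2 fold change of SENP7 over control siRNA (y axis, ± SE from limma) for 81 of the 82 tested ribosomal protein genes (x axis, ordered by fold change), coloured by role. Rpl22l1 lies at -1.27 and Rpl3l at 2.06; the subunit and stalk genes lie between -0.51 and 0.05.

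The 76 subunit and stalk proteins, all of which were tested, had fold changes in a narrow band. Their log2 fold changes ran from -0.51 to 0.05, with quartiles of -0.20 and -0.10 and SEs of 0.08 to 0.18. Relative to its mean over the 6 libraries, the median one of these genes lay at 0.26, 0.12 and -0.16 (log2) in control replicates 1, 2 and 3 and at -0.05, -0.03 and -0.13 in SENP7 replicates 1, 2 and 3. Control replicates 1 and 2 were high, and control replicate 3 was the lowest of all. The median deviation of all tested genes stayed between -0.0046 and 0.0067 in each library.

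**Figure D2:**
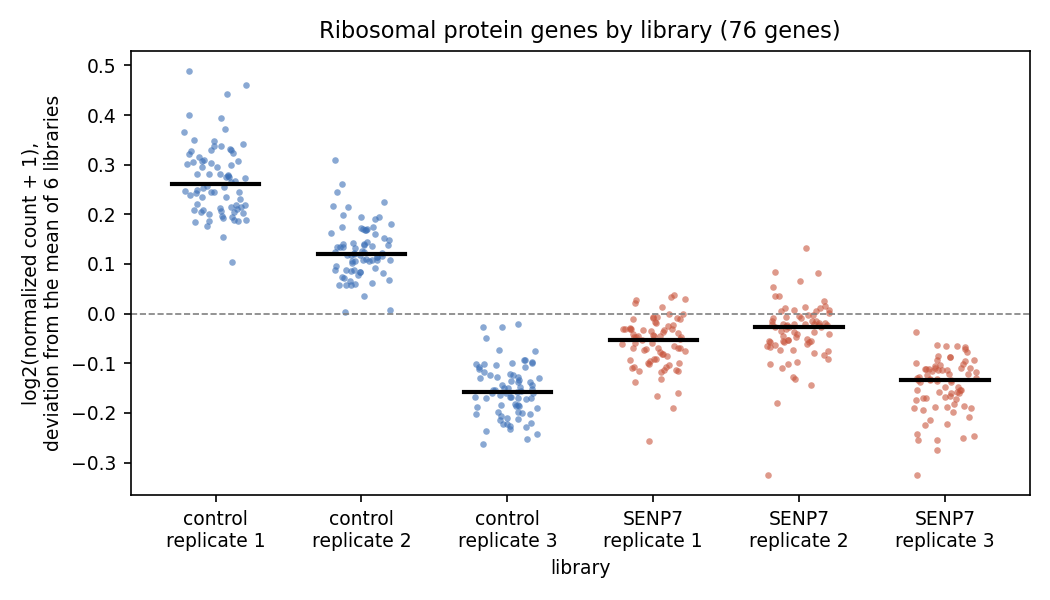
Deviation of each of the 76 subunit and stalk genes from its own mean over 6 libraries (y axis, log2(normalized count + 1)) in each library (x axis). Control replicates 1 and 2 lie above the SENP7 libraries, with medians of 0.26 and 0.12, and control replicate 3 lies at -0.16, at the level of SENP7 replicate 3 (-0.13).

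Over all 82 tested members, control replicate 1 exceeded every SENP7 library in 80 and control replicate 2 in 75, whereas control replicate 3 did so in 6. In 45 members control replicate 3 was the lowest of the 6 libraries, and in 81 it was the lowest control. When it was left out, 65 of the 82 members passed as lower in the SENP7 libraries (79.3%, where 16.3% of all tested genes passed as lower), 24 of 30 in the small subunit, 36 of 43 in the large subunit and 3 of 3 in the stalk, with a median log2 fold change of -0.26. With control replicate 1 left out instead, 2 members passed as lower (where 8.14% of all genes did), 64 lay below 0 and the median was -0.06. Without control replicate 2 or SENP7 replicate 1, 2 or 3 the members passing as lower were 1, 1, 1 and 2, where the shares of all genes were 5.06%, 5.62%, 5.47% and 7.72%. Rpl3l passed as higher without each control library in turn (all genes 8.27%, 6.06% and 15.8%), and no member passed as higher without SENP7 replicate 1, 2 or 3 (all genes 5.14%, 4.94% and 6.69%), since Rpl3l then missed the filter on low counts. With all 6 libraries, DESeq2 called 7 members lower (10.5% of all genes), and a correction for GC content and mRNA length, added after the data were seen, called 18 (15.1% of all genes). Whether the group falls thus turned on which control library was in the fit. In control replicate 3 the summed normalized count of 5 markers of myoblasts and dividing cells (Pax7, Myf5, Mki67, Top2a and Ccnb1) was 7224, against 5373 and 5419 in the other controls and 6282, 6323 and 5307 in the SENP7 libraries. Mki67, Top2a and Ccnb1, which mark dividing cells, were highest of all libraries there (2435, 3203 and 716.9). The myoblast marker Myf5 was the lowest control there (314.2, against 417.3 and 373.8), and Pax7 differed little (555.4, against 521.1 and 520.7). The sum of the 4 fibroblast markers (Pdgfra, Dcn, Lum and Tcf21) was 1727 in control replicate 3, against 1050 and 1044 in the other controls and 2020, 2201 and 2525 in the SENP7 libraries. Dcn made up most of it, with 812.4, 783.2 and 1378 in control and 1805, 1956 and 2192 in SENP7 libraries. Pdgfra was highest of all in control replicate 3 (345.3). Its groups overlapped, with means of 280.5 in control and 253 in SENP7 libraries. Lum was at most 23.68, and Tcf21 was at 0. The part of these markers in the result was not tested.

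As a share of all reads, the 87 members took 3.26%, 2.93% and 2.52% with control siRNA and 2.64%, 2.71% and 2.54% with SENP7 siRNA. The means were 2.905% ± 0.369 and 2.632% ± 0.0854 (SD, n = 3), a difference of -0.273 percentage points, smaller than the SD of the control libraries. The difference was -0.464 without control replicate 3 and -0.0958 without control replicate 1. The 30 small-subunit genes took 1.27%, 1.14% and 0.964% in control and 1.017%, 1.045% and 0.976% in SENP7 libraries. The 43 large-subunit genes took 1.724%, 1.562% and 1.357% in control and 1.422%, 1.457% and 1.364% in SENP7 libraries. Both subunits thus showed the same order of libraries, with control replicate 1 highest and control replicate 3 lowest.

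Per length, the ribosomal protein mRNAs were far above the typical gene. The median over the 76 subunit and stalk genes was 11040 normalized counts per kb of the principal mRNA in control libraries, against 199.6 over all tested genes, and 55 of the 76 were among the 200 highest genes. The highest levels per kb were those of Rplp1 (34290), Rps15 (32690), Rpl41 (31970), Rps12 (27390) and Rpl8 (23350). Per kb of all annotated exons, which is a longer measure for many of these genes, Rps12 (7890) and Rpl41 (15930) stood lower, and the highest were Rplp1 (34290), Rps15 (25940), Rplp0 (19070), Rpl8 (17520) and Rpl36 (16260). Per kb of the principal mRNA, the lowest were those of Rps10 (254.4), Rpl24 (496), Rps15a (1035), Rpl13a (1157) and Rpl29 (1730). Rpl13a and Rpl29, which fell, were thus among the 5 lowest. Of the exon bases, 46.99% in Rpl24, 35.38% in Rpl13a and 20.55% in Rps10 overlap another gene on the same strand (Gm28037, Gm45713 and RPS10-NUDT3, all listed at 0 in every library), and the principal mRNA of Rps15a is 5179 bases long. Levels of these 4 genes are uncertain.

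**Figure D3:**
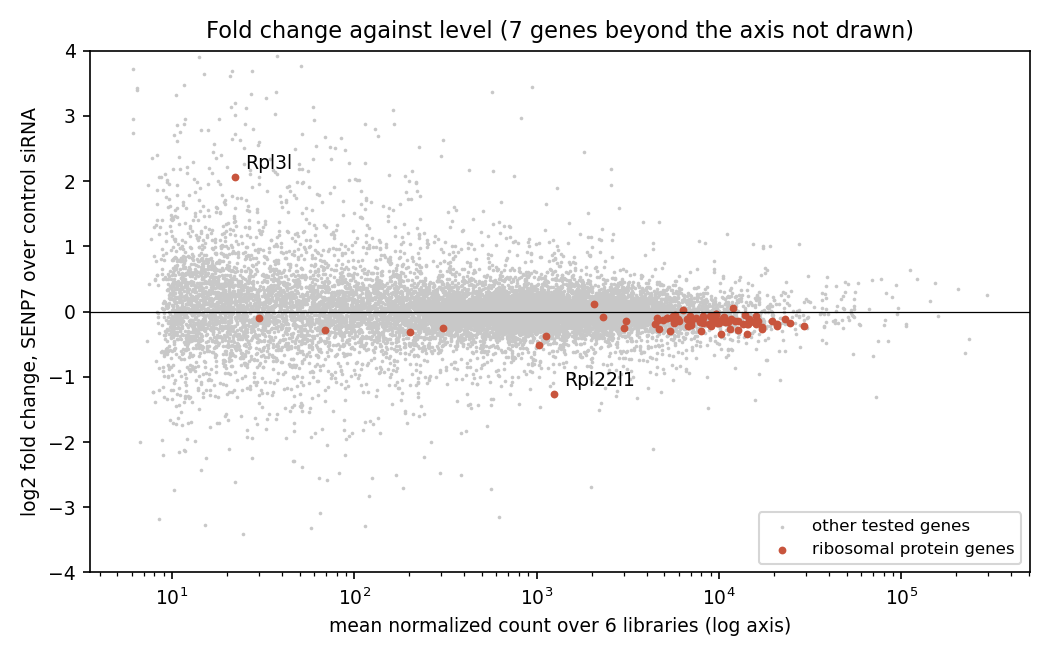
Log2 fold change of SENP7 over control siRNA (y axis) against the mean normalized count over 6 libraries (x axis, log) for all 14668 tested genes in grey, with the ribosomal protein genes in colour. Most ribosomal protein genes lie at high counts just below 0, with Rpl3l (2.06), Rpl32l and Rpl36al at low counts and Rpl22l1 (-1.27) apart. The 7 grey genes beyond the axis are not drawn.

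No member of the small subunit passed the test (0 of 30, median log2 fold change -0.16, range -0.35 to 0.03). Of all tested genes 20.9% passed in either direction. Rps2, a protein near the mRNA entry of the small subunit, came closest: its normalized counts were 13222, 11762 and 9406 in control and 9003, 9322 and 8456 in SENP7 libraries. Every control value lay above every SENP7 value, control replicate 3 by the least (-0.35 ± 0.12 SE, adjusted p = 0.0626). Rps12 had 18526, 16629 and 12824 in control and 12752, 13087 and 11598 in SENP7 libraries (-0.34 ± 0.13 SE, adjusted p = 0.0871), so that control replicate 3 lay below SENP7 replicate 2. Both passed with DESeq2 (adjusted p = 0.0157 and 0.0266) and without control replicate 3 (adjusted p = 0.000446 and 0.000515).

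Other small-subunit genes showed the same order of control libraries. Rps6, whose protein is the classical substrate of the S6 kinases, had 7044, 6586 and 5491 in control and 5802, 5821 and 5652 in SENP7 libraries (-0.14 ± 0.09 SE, adjusted p = 0.311). Its control replicate 3 was the lowest library of all. Rpsa, which is also known as a laminin receptor, had 25722, 22407 and 19027 in control and 19214, 19910 and 19185 in SENP7 libraries (-0.19 ± 0.11 SE, adjusted p = 0.231). Rps19, the gene most often mutated in Diamond-Blackfan anaemia, had 6618, 6027 and 4934 in control and 5702, 5870 and 5345 in SENP7 libraries (-0.05 ± 0.10 SE, adjusted p = 0.787). The groups overlapped in all 3 genes. Rps27a, made as a fusion with ubiquitin, stood at -0.03 ± 0.10 SE (adjusted p = 0.865), and both it and Rps19 turned above 0 under quantile normalization or without control replicate 1 (0.01 to 0.06).

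In the large subunit 3 of 43 genes fell, where 10.7% of all tested genes did (median -0.15, range -0.51 to 0.05). Rpl13a, whose protein is also known to leave the ribosome and silence inflammatory mRNAs, had normalized counts of 1407, 1243 and 983.4 in control and 839.3, 800.2 and 878.2 in SENP7 libraries. All controls were higher, and the mean fell 1.44-fold (log2 fold change -0.51 ± 0.12 SE, adjusted p = 0.0156). The call was lost without SENP7 replicate 1, SENP7 replicate 2 or control replicate 2 (adjusted p = 0.059, 0.0693 and 0.0775). The gene lies on chromosome 7, from 45125558 to 45128761 on the minus strand (GRCm38).

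Rpl29, also described as a heparin-binding protein, had 1383, 1331 and 1090 in control and 990.2, 1006 and 938.8 in SENP7 libraries. The groups did not overlap, and the mean fell 1.30-fold (-0.37 ± 0.09 SE, adjusted p = 0.0216). Rpl15 had 6463, 6159 and 5287 in control and 4953, 5069 and 4523 in SENP7 libraries, again without overlap, and fell 1.23-fold (-0.30 ± 0.09 SE, adjusted p = 0.0382). Both calls were lost when any library other than control replicate 3 was left out, with adjusted p of 0.0627 to 0.101 for Rpl29 and 0.0817 to 0.146 for Rpl15. Stretches of 75 bases that occur in other genes' transcripts made up 56.75% of the Rpl29 mRNA, 56.32% of that of Rpl13a and 29.27% of that of Rpl15, so the assignment of their reads is uncertain.

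Rpl5 and Rpl11, which with 5S rRNA bind Mdm2 when ribosome assembly is disturbed, did not pass. Rpl5 had 13290, 12255 and 10028 in control and 10659, 10680 and 10160 in SENP7 libraries (-0.17 ± 0.10 SE, adjusted p = 0.28). Rpl11 had 10169, 9297 and 8031 in control and 8874, 8997 and 8372 in SENP7 libraries (-0.06 ± 0.09 SE, adjusted p = 0.67), and its log2 fold change became 0.02 without control replicate 1. In both, control replicate 3 was the lowest library. Rpl41, the shortest ribosomal protein, had 21845, 19050 and 14919 in control and 16110, 16737 and 14221 in SENP7 libraries (-0.23 ± 0.13 SE, adjusted p = 0.253). The highest log2 fold change of the subunit was that of Rpl14 (0.05 ± 0.10 SE, adjusted p = 0.741), which became -0.05 without control replicate 3.

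The stalk, where elongation factors dock, is built from Rplp0 with the acidic proteins Rplp1 and Rplp2. None of the 3 genes passed, where 20.9% of all tested genes did (median -0.19). Rplp0 had 35759, 31788 and 27345 in control and 26595, 27676 and 26859 in SENP7 libraries (-0.22 ± 0.10 SE, adjusted p = 0.16). Rplp1 had 19670, 17405 and 14261 in control and 14728, 15310 and 14481 in SENP7 libraries (-0.19 ± 0.11 SE, adjusted p = 0.25). Rplp2 had 9866, 8863 and 6768 in control and 8118, 8072 and 7403 in SENP7 libraries (-0.10 ± 0.12 SE, adjusted p = 0.632), and its log2 fold change became 0.02 without control replicate 1. In each gene control replicate 3 overlapped the SENP7 range or lay below it.

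Of the paralogs, Rpl3l rose. It had 8, 7 and 8 reads with control siRNA and 38, 32 and 43 with SENP7 siRNA, or normalized counts of 8.06, 7.79 and 7.78 against 33.7, 34.2 and 40.7. The groups were far apart, and the 3 controls lay within 1 read of each other. The mean rose 4.6-fold (7.88 ± 0.16 to 36.2 ± 3.91 SD, n = 3), a log2 fold change of 2.06 ± 0.23 SE with an adjusted p of 0.000517. Of the 8 myotube markers, Ckm, the muscle creatine kinase, rose 1.98-fold (adjusted p = 0.00149) and Mymk, the fusion protein myomaker, rose 1.37-fold (adjusted p = 0.00428). Myog, Myh3 and Tnnt3 were higher without overlap but did not pass (adjusted p = 0.0904, 0.0635 and 0.065). Acta1, Ttn and Des overlapped, and Des lay lower in the SENP7 mean (log2 fold change -0.20 ± 0.11 SE, adjusted p = 0.242). Their part in the result was not tested. Rpl3l passed the filter on low counts through the SENP7 libraries alone, so that it had to differ to be tested by it; with every gene that had a read kept, its adjusted p was 9e-06. It could not be tested under the filter when a SENP7 library was left out, nor when a mean of at least 50 was required.

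Rpl3 itself, the protein that Rpl3l can replace, had 14763, 13490 and 12087 in control and 11941, 12247 and 12061 in SENP7 libraries. Control replicate 3 lay within the SENP7 range, and the log2 fold change of -0.15 ± 0.08 SE did not pass (adjusted p = 0.229; without control replicate 3 it was -0.22, adjusted p = 0.0195). The reads of Rpl3l as a share of those of both genes were 0.0546%, 0.0577% and 0.0643% with control siRNA and 0.282%, 0.279% and 0.337% with SENP7 siRNA. The exact (Clopper-Pearson) 95% intervals, which cover counting error only, ran from 0.0232% to 0.127% over the controls and from 0.191% to 0.453% over the SENP7 libraries. Rpl3 thus made up nearly all of the pair in both groups, on reads and per length alike (Rpl3l 0.0536% to 0.0632% per length in control, 0.274% to 0.331% in SENP7 libraries).

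The log2 ratio of Rpl3l to Rpl3 was -10.56 ± 0.12 in control and -8.35 ± 0.15 in SENP7 libraries (SD, n = 3). The difference of 2.21 gave p = 0.1 in a two-sided exact permutation test, the smallest that 3 against 3 allows, and 0.25 after Benjamini-Hochberg adjustment over the 5 pairs measured. The longest run of bases that the 2 mRNAs share is 22, and no stretch of 75 bases of Rpl3l occurs in another gene. The Rpl3l gene (chromosome 17, 24727820 to 24736143, plus strand, GRCm38) begins 5890 bases beyond Rps2, whose groups were ordered the other way.

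Rpl22l1 fell the most of all members. This paralog of Rpl22 is known to be held down by Rpl22 in other mouse tissues. Its normalized counts were 2079, 1682 and 1499 in control and 761.3, 735 and 671.6 in SENP7 libraries. All control libraries lay above all SENP7 libraries. The mean fell 2.43-fold (log2 fold change -1.27 ± 0.11 SE, adjusted p = 0.000174), and the call held in all 18 alternative settings in which it was tested (adjusted p = 1.87e-21 to 0.0028), each left-out library included. Rpl22 had 7998, 7439 and 6250 in control and 6809, 6963 and 6447 in SENP7 libraries (-0.09 ± 0.09 SE, adjusted p = 0.51), with control replicate 3 the lowest.

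Per length, Rpl22l1 made up 49.1%, 45.7% and 47.1% of the pair in control libraries and 29.3%, 28.2% and 27.9% in SENP7 libraries. The share in control depends on the length used: per kb of all annotated exons, the control levels were 881.6 for Rpl22l1 and 2483 for Rpl22. The direction of the difference between groups does not depend on it. The log2 ratio of Rpl22l1 to Rpl22 differed by -1.17 (-2.05 ± 0.10 in control, -3.22 ± 0.05 in SENP7 libraries, SD, n = 3; exact permutation test, two-sided p = 0.1, adjusted 0.25). Control replicate 3 lay between the other controls in this ratio. Of the Rpl22l1 mRNA, 49.58% is shared in stretches of 75 bases with the gene models Gm15421 and Gm16053, and 7.99% of its exon bases overlap Gm33051 on the opposite strand, which had 31.2, 11.1 and 10.7 normalized counts in control and 6.21, 7.49 and 3.79 in SENP7 libraries.

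**Figure D4:**
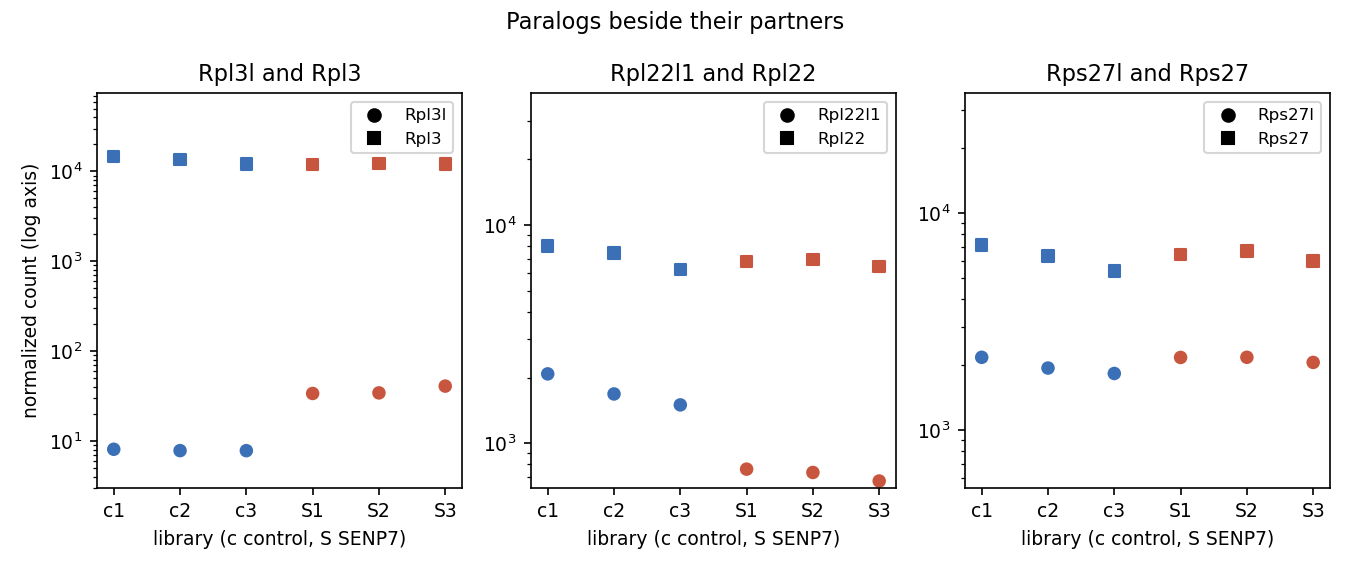
Normalized counts (y axis, log) of paralogs and their partners in each library (x axis: c control, S SENP7). Rpl3l rises from about 8 to 33.7 or more while Rpl3 stays between 11941 and 14763, and Rpl22l1 drops from 1499 or more to 761.3 or less while Rpl22 stays between 6250 and 7998.

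In the other 3 measured pairs the ratios of the groups overlapped. Rps27l, a p53-responsive paralog of Rps27, had 2163, 1930 and 1822 in control and 2160, 2164 and 2049 in SENP7 libraries (0.11 ± 0.07 SE, adjusted p = 0.314). Rps27 had 7130, 6348 and 5407 in control and 6439, 6683 and 6008 in SENP7 libraries (0.03 ± 0.10 SE, adjusted p = 0.879; -0.08 without control replicate 3). Their log2 ratio differed by 0.08 (exact permutation test, two-sided p = 0.3, adjusted 0.5).

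Rpl7l1, which belongs to the nucleolar precursors of the large subunit rather than to the finished ribosome, had 3356, 3394 and 2933 in control and 2941, 2987 and 2820 in SENP7 libraries (-0.14 ± 0.07 SE, adjusted p = 0.178). Its partner Rpl7 stood at -0.14 ± 0.09 SE (adjusted p = 0.313), and the log2 ratio differed by -0.01 (exact permutation test, two-sided p = 1). Rpl36al, with 61.3 to 99.8 normalized counts in control and 57.8 to 66.5 in SENP7 libraries, did not pass, nor did Rpl36a (log2 fold changes -0.29 ± 0.20 and -0.27 ± 0.10 SE, adjusted p = 0.337 and 0.0936). Their log2 ratio differed by -0.02 (exact permutation test, two-sided p = 0.9). Rpl10l and Rpl39l, paralogs known from testis, and Rps4l had no read in any library, which allows up to 3 reads per library, or 0.0972 to 0.119 CPM. Rpl6l (7.49 to 18.1 normalized counts) and Rps12l1 (at most 3.34) were too low to test, and Rpl32l stood at -0.10 ± 0.21 SE (adjusted p = 0.773).

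The start of the mRNA is shown for Rpl13a, Rpl15 and Rpl22l1, which fell, Rps6 and Rps10, which did not pass, and Rpl3l, which rose, because the pyrimidine run there is the feature by which ribosomal protein mRNAs are known. The 30 bases run 5′ to 3′ from 10 before to 20 after the RefSeq start (GRCm38.p6), and capitals mark a C followed by 7 or more C or T.
Rpl13a, chr7:45128726-45128755, minus strand: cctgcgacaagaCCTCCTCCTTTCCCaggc
Rpl15, chr14:18270967-18270996, minus strand: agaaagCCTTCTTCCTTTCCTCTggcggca
Rps10, chr17:27635225-27635254, minus strand: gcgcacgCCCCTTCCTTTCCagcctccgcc
Rps6, chr4:86857348-86857377, minus strand: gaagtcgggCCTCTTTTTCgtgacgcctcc
Rpl22l1, chr3:28805498-28805527, plus strand: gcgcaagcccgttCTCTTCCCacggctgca
Rpl3l, first start, chr17:24727816-24727845, plus strand: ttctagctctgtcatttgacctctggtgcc
Rpl3l, second start, chr17:24732675-24732704, plus strand: caacagctacagtgccccaaatgtcctgaa
Each of the 5 stretches other than those of Rpl3l holds a run, while neither stretch of Rpl3l does. Runs thus stood at the start of members that fell and of members that did not pass.

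RefSeq gave a window for 64 of the 87 members, 56 of them subunit and stalk genes. Within 50 bases either side of the start, on the sense strand, 48 of these 56 (85.7%) held such a run, against 32% of 27025 genes; Rpl3l and Rpl22l1 held one too in this wider window. The letters CCGGAAG, the core that ETS factors such as GABP bind, occurred on either strand within 250 bases before to 50 after the start in 23 of 56 (41.1%), against 9.93% of all genes, and in neither Rpl3l nor Rpl22l1. AAGATGGC, the core of the YY1 site, occurred on either strand in 8.93% against 3.19%, and TATAAA on the sense strand in 8.93% against 9.77%. The median log2 fold change was -0.16 for the 23 genes with CCGGAAG and -0.16 for the 33 without, and -0.16 for the 48 with a pyrimidine run and -0.19 for the 8 without. A match describes the letters in the window and is no evidence of binding.

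The 76 subunit and stalk genes lie on 19 chromosomes, 14 of them on chromosome 7 and 4 (Rpl10, Rpl36a, Rpl39 and Rps4x) on the X chromosome. Of these genes 29 hold snoRNAs, small RNAs that guide rRNA modification, between their start and end on the same strand (56 in all). Whether each lies in an intron was not checked. The median log2 fold change was -0.16 in these hosts, with 1 called lower, and -0.14 in the other 47, with 2 called lower. Of all tested genes 10.7% were called lower. A median of 40.04% of a subunit or stalk mRNA was shared with other genes in 75-base stretches, up to 98.5% in Rps27. In the 9 genes with under 10% shared, all log2 fold changes were below 0, with a median of -0.17. Without control replicate 3 their median was -0.25 and all 9 passed as lower. In that fit 65 of the 82 tested members and 16.3% of all tested genes passed as lower. Genes named as ribosomal protein pseudogenes took 0.0356% to 0.0469% of the reads.

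Ribosome proteins outside the naming rule and other RNAs with a terminal pyrimidine run gave similar values. Fau, Rps3a1 and Rack1 did not pass, with Fau at -0.26 ± 0.12 SE (adjusted p = 0.165), Rps3a1 at -0.12 ± 0.08 SE (adjusted p = 0.315) and Rack1 at -0.19 ± 0.11 SE (adjusted p = 0.267). The list of 23 other RNAs known for a pyrimidine start held mRNAs, such as those of translation factors, and the noncoding Gas5 and Snhg1. None of the 23 passed, where 20.9% of all tested genes did (median -0.10). Without control replicate 3, 11 of them passed as lower, where 16.3% of all tested genes did. Eef2, which moves the ribosome along the mRNA, had 116020, 121937 and 103900 in control and 98626, 97784 and 96514 in SENP7 libraries (-0.22 ± 0.09 SE, adjusted p = 0.122). Its groups did not overlap.

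The lists of genes that make ribosomes are to be read against the 10.2% of all tested genes that rose and the 10.7% that fell. Of 15 genes of RNA polymerase I and its factors 1 fell, Polr1a, the largest subunit of that enzyme, from 3025, 3225 and 3276 to 2553, 2599 and 2710 (-0.28 ± 0.06 SE, adjusted p = 0.0102; median of the list -0.04). This call was lost without SENP7 replicate 1 or 2 or control replicate 2 (adjusted p = 0.0628, 0.058 and 0.0527). None of 29 factors of small-subunit assembly passed (median -0.09). Of 41 factors of large-subunit assembly 3 fell and 1 rose (median -0.09). Sbds, which helps release Eif6 from the new subunit, fell from 2583, 2573 and 2355 to 1962, 1895 and 1828 (-0.40 ± 0.06 SE, adjusted p = 0.00247). Wdr12, of the PeBoW complex, fell by 0.36 on the log2 scale (adjusted p = 0.00496), Ebna1bp2 by 0.32 (adjusted p = 0.00901), and the helicase Ddx51 rose by 0.24 (adjusted p = 0.0235; 0.0708 to 0.123 without SENP7 replicate 1 or 2 or control replicate 2, and 0.0581 when every gene with a read was tested). Sbds, Wdr12 and Ebna1bp2 did not overlap between groups and kept their call in all 18 settings. Without control replicate 3, 13 of the 41 passed as lower and 2 as higher, where 16.3% and 15.8% of all tested genes did.

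Of 12 chaperones and importins of ribosomal proteins none passed (median -0.06). Of 17 regulators of ribosomal protein synthesis 1 fell and 2 rose (median 0.03). Myc, which drives transcription of ribosomal genes, fell from 1750, 1674 and 1338 to 1043, 1115 and 1157 (-0.51 ± 0.10 SE, adjusted p = 0.00762). Control replicate 3 was the lowest control here too, and still above all SENP7 libraries. Larp4, which binds poly(A), rose by 0.26 (adjusted p = 0.0185), as did Eif4ebp1, the mTOR target that holds back cap-dependent translation (0.26, adjusted p = 0.0496). Larp4 lost its call without SENP7 replicate 2 or 3 (adjusted p = 0.0841 and 0.0638) and with the correction for GC content and length (0.0769). Eif4ebp1 lost it without SENP7 replicate 1 or 2 or control replicate 2 (adjusted p = 0.178 to 0.185) and when a mean of at least 50 was required (0.0514).

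The mitochondrial ribosome, whose proteins are encoded by other genes, had a median of the other sign. Of 77 tested genes named Mrpl or Mrps, 5 rose and none fell, where 10.2% and 10.7% of all tested genes did (median log2 fold change 0.05, with 28 of 77 below 0). With 1 library left out the rises ranged from 0 to 8 and the falls from 0 to 6. Mrpl38 had 1407, 1362 and 1208 in control and 1633, 1631 and 1691 in SENP7 libraries (0.32 ± 0.07 SE, adjusted p = 0.0122). The other 4 were Mrps35 (0.31), Mrpl48 (0.28), Mrpl42 (0.26) and Mrps26 (0.24). Without control replicate 3 the counts were 4 higher and 6 lower and the median was -0.03. Mrpl38, Mrpl42 and Mrpl48 lost their calls without SENP7 replicate 1 or 2 (adjusted p = 0.051 to 0.101), and Mrpl48 also without control replicate 2 (0.0845). A difference between the 2 ribosomes was not tested.

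In the authors' deposited table, 6 members were lower and 1 was higher at an adjusted p below 0.05. The share of all genes called there was not computed, so these counts have no background beside them. There the log2 fold change of Rpl22l1 was -1.19 (adjusted p = 3.42e-21) and that of Rpl13a -0.49 (adjusted p = 0.00117). The higher member was Rpl3l, at a log2 fold change of 1.15 (adjusted p = 2.24e-05), smaller than the 2.06 computed here.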

How the data were processed

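Poly(A) RNA of 6 C2C12 myotube libraries, 3 per group, was sequenced in paired reads, per the labels' protocols. The submitters' processing notes name STAR 2.6.1d, featureCounts 1.6.4, Trim Galore 0.6.4, bcl2fastq and DESeq2, with GRCm38.p6. Strand setting, treatment of reads that map to several genes, and annotation release: not given in the sources used here. Deposited by the authors was a normalized signal per gene and library, which from the values is the read count divided by 1 factor per library. Per the file headers, the deposited table gave log2 fold changes by the authors with standard error and adjusted p-value. A Wald score per gene was deposited too, per the file headers, and was not used. The deposited exon length per gene was used for the levels per kb of all annotated exons. In each library 100% of the positive values up to 2000 reads were whole multiples of 1 step within 0.1 read, which gave the reads back. A normalized count of 1 is about 1 read.

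For raw counts the design named edgeR, for normalized values limma-trend. As the table held the latter, limma 3.58.1 (R 4.3.3) was fitted to log2(normalized count + 1) with robust empirical Bayes and a trend, for genes of at least 10 in at least 3 libraries, in 1 fit of all 6 libraries with the group as the only term. Fold changes in log2 refer to this scale and are too small for genes of low count. All tests were two-sided, with Benjamini-Hochberg adjustment over 14668 genes and a threshold of 0.05. The procedure was tested on simulated data. The members and lists were chosen with earlier results of these data known, so no list has a test of its own and no shared direction is independent support.

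Named were all paralogs and partners, members past the threshold, the 5 highest and 5 lowest per kb, a fixed set of members by role, and from each list up to 3 genes of smallest adjusted p. Rps2, Rps12, Rpl4 and Rpl14 and further list genes were named after their values were seen. Values of a few single genes are not reported here. Lengths of the principal mRNAs, exon overlaps and shared stretches came from GENCODE M21, in which all 54349 shared identifiers had the same coordinates as the table. Promoters came from RefSeq. Tried as alternatives were a replicate block, DESeq2 1.42.0, edgeR 4.0.16 (3030 genes called) and limma-voom on the recovered reads, other scalings, filters, pseudocounts and thresholds, and each library left out. A correction for GC content and mRNA length was added after the data were seen.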

Additional observations from a re-analysis of the deposited data

How the results depend on the processing

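The subunit gene with the fewest reads in a library, Rps10, had 164, and the largest SEs were those of Rpl24 (0.176) and Rps10 (0.153) among the lowest counts. For most subunit genes the 3 control libraries spanned more than the 3 SENP7 libraries did. The call for Rpl22l1 held in all settings. The number of genes called, 3062, ranged from 1504 to 4657 with 1 library left out and was 1398 at an adjusted p below 0.01. The 1 member higher became 0 when a mean of at least 50 was required and was 0 to 1 with 1 library left out, since Rpl3l no longer passed the filter. The 4 members lower became 7 with DESeq2, 18 with the GC and length trend removed, 14 with the replicate block (14.5% of all genes passed as lower there) and 1 at the stricter threshold, and ranged from 1 to 65 with 1 library left out, the 65 without control replicate 3. The cause was not tested. The median log2 fold change of members stayed below 0 in every setting, from -0.26 to -0.06. The Rpl3l to Rpl3 difference stayed between 1.82 and 2.28.

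The numbers were not taken as pairs, as the sources used here name no pairing. Deviations of same-numbered libraries correlated at 0.13, 0.06 and 0.25. SENP7 replicate 2 correlated best with control replicate 1 (0.14), and SENP7 replicate 3 correlated positively only with control replicate 3. These values do not settle whether the libraries were paired. With the replicate block 4175 genes were called, and the paired Rpl3l to Rpl3 difference was 2.21 (exact permutation test, p = 0.25, the smallest for 3 pairs).

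Signs reversed in 12 of 930 gene settings, all of genes that had not passed the test. The log2 fold changes were -0.0088 for Rps27 with the GC and length trend removed and 0.013 for Rps19 and 0.020 for Rps27a under quantile normalization. The other reversals came with 1 library left out, over ranges of -0.079 to 0.12 for Rps27, -0.052 to 0.14 for Rpl14, -0.24 to 0.0018 for Rpl8, -0.23 to 0.0026 for Rps15a, -0.25 to 0.021 for Rplp2, -0.15 to 0.017 for Rpl11, -0.16 to 0.047 for Rps19 and -0.14 to 0.062 for Rps27a.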
